A study of Mus musculus with 16 samples.

Results

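The relaxin family genes Insl3, Insl6, Rxfp1 and Rxfp2 were followed through Tex10-deficient and wild-type mouse spermatogenic cells, Tex10 being a nuclear protein. They were the rows of the deposited expression table whose gene name equals one of these 4 symbols, 4 of 13100 genes kept. Rxfp1 was chosen by its low measured values in Tex10-deficient MII spermatocytes, so the MII comparison between genotypes is given as a description with no test for all 4 genes. The other family members looked for, Rln1, Rln3, Insl5, Rxfp3 and Rxfp4, were not analysed here.

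Relaxin family hormones are small secreted peptides related to insulin. Insl3 is the hormone that Leydig cells, the steroid-producing cells between the tubules of the testis, release in large amounts, and it acts through the receptor Rxfp2 in the descent of the testis. Rxfp1 is the receptor of relaxin itself. Both receptors have a large leucine-rich extracellular part, span the membrane like other G protein-coupled receptors and signal mainly through cAMP. Insl6 is made in germ cells and is needed for full male fertility in mice, and no receptor for it is well established.

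The study asked what loss of Tex10 does to the RNA of spermatogenic cells. PolyA-enriched bulk RNA-seq was made from testis cells of 8-week-old C57BL/6J males. The Tex10-deficient animals carried 1 floxed and 1 null Tex10 allele with a Cre recombinase driven by the Stra8 promoter (Tex10f/-; Stra8iCre), which is active in spermatogonia as they approach meiosis, and the other genotype was labelled WT with no allele or agent named. Each genotype had 2 libraries each of spermatogonia, MI spermatocytes, MII spermatocytes and spermatids, 16 libraries in all, and whether animals were pooled or the 2 libraries came from separate animals is not stated.

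Values are FPKM, fragment numbers scaled to transcript length and to the mapped total of a library. The authors were taken to have deposited them with 1 added, since the smallest value was 1, and that 1 was taken off again. The libraries listed 10044 to 12394 genes at 1 FPKM or more, and their read numbers are unknown. Tex10 itself stood at 30.9% of the wild-type mean in Tex10-deficient spermatogonia, 21.1% in MI spermatocytes, 37.4% in MII spermatocytes and 31.0% in spermatids. The labels give a cell type both in the title and in a field of its own, and these disagree for 6 of the 8 Tex10-deficient libraries and 0 of the 8 wild-type ones. Groups follow the titles here, since 8 of 8 Tex10-deficient libraries were nearest by rank correlation to a wild-type library of the title's type and 2 of 8 to one of the field's type. The MII libraries went against their name in their markers: 11 meiotic spermatocyte genes summed to 87.2 and 151 FPKM in Tex10-deficient and 203 and 627 FPKM in wild-type MII libraries, against 2092 to 3132 FPKM in the 4 MI libraries. The same list summed to 2814 to 3736 FPKM in the spermatid libraries, so it does not separate spermatocytes from later cells. Leydig cell markers were highest in the MII libraries. Below, "MII spermatocytes" therefore stands for the libraries with that title.

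**Figure D1:**
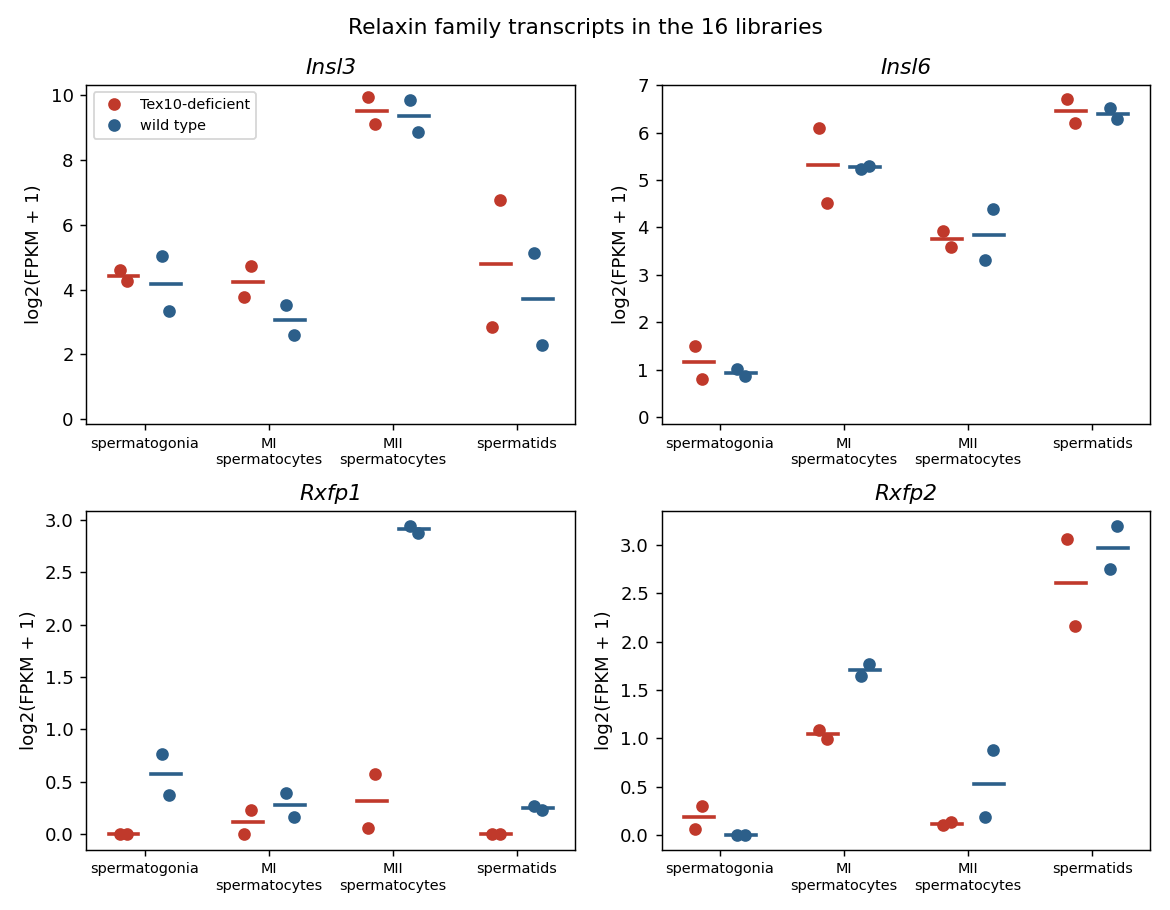
Levels of Insl3, Insl6, Rxfp1 and Rxfp2 as log2(FPKM + 1) (y axes) in each of the 16 libraries by cell type (x axis), with points for libraries and short lines for the mean of 2, Tex10-deficient left of wild type. Insl3 peaks in the MII libraries of both genotypes, Insl6 and Rxfp2 peak in spermatids, and Rxfp1 is above 1 FPKM in the 2 wild-type MII libraries alone.

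Among the ligands, Insl3 had by far the highest levels of the 4 genes, and nearly all of it lay in the MII libraries of both genotypes. The gene (identifier XLOC_020768) has 2 exons on chromosome 8, 71689214 to 71690575, plus strand (GRCm38). In Tex10-deficient cells its level was 23.3 and 18.0 FPKM in spermatogonia, 12.6 and 25.6 FPKM in MI spermatocytes, 979 and 555 FPKM in MII spermatocytes, and 6.14 and 108 FPKM in spermatids. In wild-type cells it was 32.0 and 9.06 FPKM in spermatogonia, 10.6 and 5.09 FPKM in MI spermatocytes, 918 and 463 FPKM in MII spermatocytes, and 33.8 and 3.89 FPKM in spermatids. Every MII library stood above every other library, while within each group the paired libraries could lie several-fold apart.

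The RefSeq promoter of Insl3 (GRCm38.p6, chr8:71689002-71689301, plus strand) is shown because this gene marks 1 somatic cell type and its start carries elements known from steroidogenic genes. The first 2 runs of capitals are the letters AAGGTC, the core bound by the steroidogenic regulator SF-1 (Nr5a1), on the plus strand at window position 115 and on the minus strand at window position 161, where it reads as its reverse complement. The third run holds TATAA on both strands at window positions 221 and 220, which overlap. Positions count from 1 at the 5′ end of the window.
Insl3 promoter: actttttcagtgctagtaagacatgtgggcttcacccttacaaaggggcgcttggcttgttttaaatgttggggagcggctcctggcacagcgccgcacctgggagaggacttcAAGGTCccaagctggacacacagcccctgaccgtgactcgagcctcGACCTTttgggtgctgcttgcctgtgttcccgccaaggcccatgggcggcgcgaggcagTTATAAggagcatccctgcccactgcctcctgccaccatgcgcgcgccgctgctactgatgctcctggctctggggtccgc
Searched on both strands, AAGGTC was present in 12.3%, TATAA in 24.9% and TGACG, the core of the cAMP response element, in 20.8% of 32851 RefSeq promoters of the same length. The Insl3 window did not contain TGACG.

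Mean Insl3 was 767 ± 300 FPKM in Tex10-deficient MII libraries and 690.2 ± 322 FPKM in wild-type MII libraries (SD, n = 2 each). Relative to MI spermatocytes the MII mean was 40.2-fold higher in Tex10-deficient cells and 88.0-fold higher in wild-type cells. With limma on log2(FPKM + 1) and Benjamini-Hochberg adjustment over 13099 genes, Insl3 was higher in MII than in MI libraries by 5.28 in Tex10-deficient cells (SE 1.07, adjusted p = 0.000658) and by 6.28 in wild-type cells (SE 1.07, adjusted p = 0.000257). It was lower in spermatids than in MII libraries, with log2 differences of -4.72 in Tex10-deficient cells (adjusted p = 0.00106, and -2.75 without replicate 1 of these spermatids) and -5.64 in wild-type cells (adjusted p = 0.00028). Consecutive steps share the MII libraries, and many genes changed in them: 61.7% of genes passed from MI to MII and 75.7% from MII to spermatids in Tex10-deficient cells, against 57.2% and 73.8% in wild-type cells. The other wild-type steps of Insl3 missed the threshold, with log2 differences of -1.12 from spermatogonia to MI spermatocytes (adjusted p = 0.401) and 0.63 from MI spermatocytes to spermatids (adjusted p = 0.661), the second turning to -0.78 without wild-type spermatid replicate 1.

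Insl3 moved with the Leydig cell markers. The 8 markers, Insl3 not among them, summed to 554 and 782 FPKM in Tex10-deficient MII libraries and to 545 and 490.4 FPKM in wild-type MII libraries. In the other 12 libraries the sum lay between 13.3 and 138 FPKM, the highest being Tex10-deficient spermatid replicate 2, which also had the highest Insl3 outside MII (108 FPKM). The steroidogenic enzyme Hsd3b6 led the list in MII with 255 and 388 FPKM in Tex10-deficient and 167 and 135 FPKM in wild-type libraries. Hsd3b1, a second enzyme of the same step, had 104 and 129 FPKM in Tex10-deficient and 76.2 and 115 FPKM in wild-type MII libraries. Cyp17a1, the enzyme that leads on to androgens, had 45.7 and 79.9 FPKM in Tex10-deficient and 80.1 and 71.2 FPKM in wild-type MII libraries. Cyp11a1, the first enzyme of steroid synthesis, lay the other way, with 21.1 and 43.2 FPKM in Tex10-deficient and 97.4 and 72.8 FPKM in wild-type MII libraries. Without Hsd3b6, a choice made after seeing the data, the sums of the MII libraries overlapped at 299.6 and 394 FPKM in Tex10-deficient and 378 and 355 FPKM in wild-type ones. The ratio of Insl3 to the marker sum ranged from 0.281 to 1.77 over the 16 libraries, with 1.77 and 0.71 in Tex10-deficient and 1.68 and 0.943 in wild-type MII libraries. Whether fewer cells of a type or less RNA per cell lies behind any level cannot be told apart in bulk libraries, and the part of Leydig cell RNA in the Insl3 values was not tested.

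**Figure D2:**
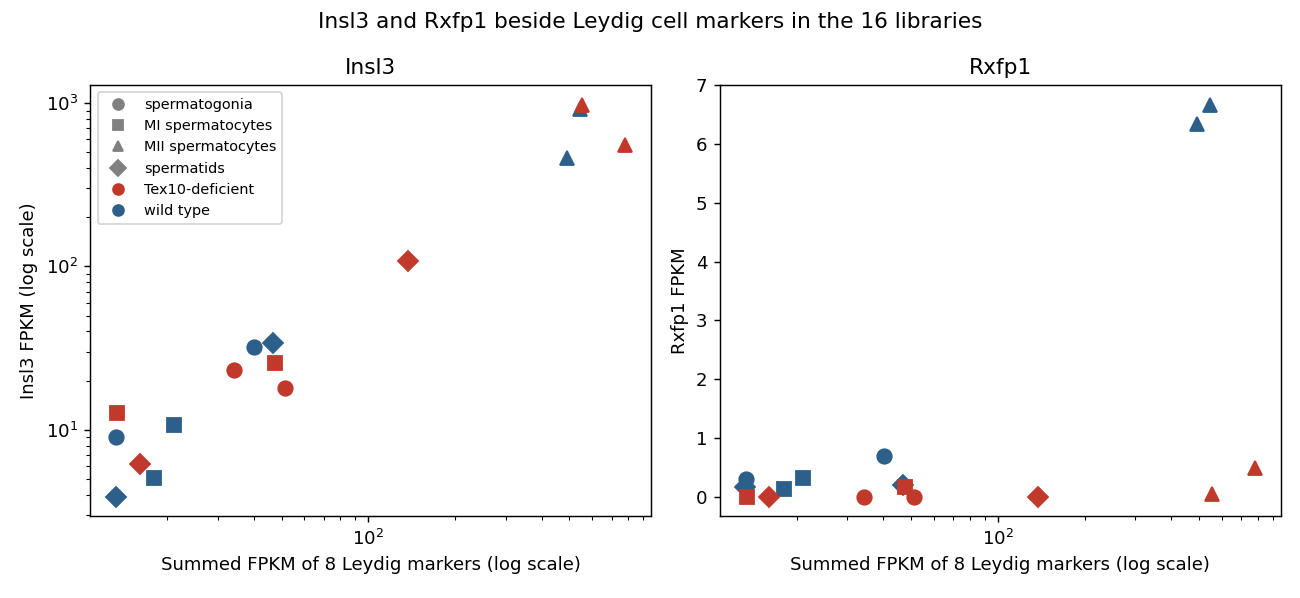
Levels of Insl3 (left, FPKM on a log axis) and Rxfp1 (right, FPKM on a linear axis) against the summed FPKM of 8 Leydig cell markers (x axes, log) in the 16 libraries, each point a library, with colours for genotype and marks for cell type. Insl3 is high in all 4 libraries with a marker sum above 490, whereas Rxfp1 is high in the 2 wild-type ones and below 0.5 FPKM in the 2 Tex10-deficient ones.

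Between genotypes no change of Insl3 passed the test. The log2 difference was 0.24 in spermatogonia, 1.18 in MI spermatocytes and 1.10 in spermatids (SE 1.07 and limma adjusted p = 1 for each). Both Tex10-deficient MI libraries lay above both wild-type ones, as for 15.7% of genes. The average over these 3 cell types was 0.84 (95% interval -0.48 to 2.16, adjusted p = 0.894), and it was 0.18 without Tex10-deficient spermatid replicate 2 and 1.495 without replicate 1. In spermatids the sign rested on single libraries, since the difference was -0.87 without Tex10-deficient replicate 2 and -0.31 without wild-type replicate 2, and in spermatogonia it was -0.62 without wild-type replicate 2. Of the Insl3 exon bases, 404 of 623 (64.8%) also lie in exons of Jak3, a cytokine receptor kinase gene on the same strand that was not analysed here, so reads of the genes could be shared in counting.

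Insl6, the germ cell ligand, was near 1 FPKM in spermatogonia and reached its highest levels in spermatids of both genotypes. The gene (XLOC_010864) has 2 exons on chromosome 19, 29321344 to 29325356, minus strand. In Tex10-deficient cells it had 1.83 and 0.738 FPKM in spermatogonia, 67.4 and 21.9 FPKM in MI spermatocytes, 14.3 and 11.01 FPKM in MII spermatocytes, and 104 and 73.2 FPKM in spermatids. In wild-type cells it had 1.002 and 0.808 FPKM in spermatogonia, 36.8 and 38.5 FPKM in MI spermatocytes, 8.93 and 19.9 FPKM in MII spermatocytes, and 90.7 and 77.1 FPKM in spermatids. All spermatid libraries exceeded all other libraries, and the genotypes overlapped in every cell type.

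The MI mean of Insl6 was 34.7-fold above the spermatogonial mean in Tex10-deficient cells and 41.6-fold above it in wild-type cells. On the log2 scale this rise was 4.16 in Tex10-deficient cells (SE 0.46, limma adjusted p = 1.35e-05) and 4.34 in wild-type cells (SE 0.46, adjusted p = 6.12e-06), in a step where 51.2% and 51.9% of genes passed. Insl6 fell into MII by 1.55 in Tex10-deficient cells (adjusted p = 0.00984) and by 1.42 in wild-type cells (adjusted p = 0.0176), and was higher again in spermatids than in MII by 2.703 in Tex10-deficient cells (adjusted p = 0.000108) and 2.55 in wild-type cells (adjusted p = 0.000202). The Tex10-deficient fall into MII was -2.34 without MI replicate 2 and was not called without MI replicate 1 (-0.76, adjusted p = 0.172) or MII replicate 2 (adjusted p = 0.0585), and in wild-type cells without MI replicate 1 (adjusted p = 0.0577), MI replicate 2 (adjusted p = 0.0765) or MII replicate 1 (-0.88, adjusted p = 0.182). Spermatids exceeded MI spermatocytes 1.98-fold in the Tex10-deficient means and 2.23-fold in the wild-type means, a step that missed the threshold (adjusted p = 0.0587 and 0.063) beside 42.4% and 42.3% of genes passing.

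Genotype made no called difference in Insl6. The log2 difference was 0.22 in spermatogonia, 0.04 in MI spermatocytes and 0.06 in spermatids (SE 0.46, limma adjusted p = 1 for each), and their average was 0.11 (95% interval -0.47 to 0.68, adjusted p = 0.970). The 2 Tex10-deficient MI libraries lay on either side of the wild-type pair, and the MI difference was -0.75 without Tex10-deficient replicate 1 and 0.82 without replicate 2. In MII spermatocytes the means were 12.6 ± 2.3 FPKM in Tex10-deficient and 14.4 ± 7.77 FPKM in wild-type libraries. The gene lies 8.3 kb from Jak2, a ubiquitous cytokine receptor kinase, which followed another course with 15.8 and 16.4 FPKM in Tex10-deficient and 12.3 and 13.3 FPKM in wild-type spermatogonia, and 0.94 and 1.77 FPKM in Tex10-deficient and 0.717 and 0.609 FPKM in wild-type spermatids.

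Of the receptors, Rxfp1 was above 1 FPKM in 2 of 16 libraries, both wild-type MII. The gene (XLOC_013798) spans 18 exons on chromosome 3, 79641611 to 79737880, minus strand. Its level in MII spermatocytes was 0.0415 and 0.489 FPKM in the Tex10-deficient libraries and 6.67 and 6.34 FPKM in the wild-type ones. In spermatogonia it was listed at 0 in both Tex10-deficient libraries and had 0.697 and 0.297 FPKM in the wild-type ones. In MI spermatocytes it was listed at 0 and had 0.169 FPKM in the Tex10-deficient libraries, against 0.316 and 0.123 FPKM in wild-type ones. In spermatids it was listed at 0 in both Tex10-deficient libraries and had 0.205 and 0.172 FPKM in the wild-type ones. The genotypes overlapped in MI spermatocytes and not in the other 3 cell types.

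The MII values chose the gene and are described only. The Tex10-deficient MII mean was 4.08% of the wild-type MII mean, and the log2 difference was -2.59 (SE 0.26). Comparing the genotypes in MII by the same call rule, 0.00763% of genes passed, which is 1 of 13099. Rxfp1 was itself among the genes counted, so this share is no independent background for it and does not show how rare its difference is. Both Tex10-deficient libraries lay below both wild-type ones for 18% of genes. Rxfp1 entered the tested genes only through the 2 wild-type MII libraries, since the filter asked for at least 1 FPKM in at least 2 libraries. Outside MII the values that the choice did not use were small: the log2 difference was -0.57 in spermatogonia (SE 0.26, 95% interval -1.13 to -0.01, limma adjusted p = 0.739), -0.17 in MI spermatocytes and -0.25 in spermatids (adjusted p = 1 for both). Non-overlap with Tex10-deficient below wild type, as Rxfp1 had, was seen for 19.6% of genes in spermatogonia and 15.9% in spermatids. The average over these 3 types was -0.33 (95% interval -0.65 to -0.01, limma adjusted p = 0.707), which did not pass.

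The wild-type MII libraries in which Rxfp1 was high also held somatic markers. In MII the sums of the macrophage, Sertoli, and myoid and endothelial lists overlapped between genotypes. The Leydig sums did not, but overlapped without Hsd3b6, as given above. Leydig markers summed to 554 and 782 FPKM in Tex10-deficient and 545 and 490.4 FPKM in wild-type MII libraries, and by mean log2(FPKM + 1) 6 of 8 were higher in Tex10-deficient libraries. Myoid and endothelial markers, 5 of 7 in the table, summed to 143 and 146 FPKM in Tex10-deficient and 147 and 90.7 FPKM in wild-type MII libraries, and Sertoli cell markers, 3 of 10 in the table, to 115 and 81.0 FPKM in Tex10-deficient and 99.7 and 103 FPKM in wild-type ones. Macrophage and other immune markers summed to 216 and 318 FPKM in Tex10-deficient and 314 and 596 FPKM in wild-type MII libraries, with 10 of 10 lower by that measure. By that measure 11 of 11 spermatocyte, 9 of 10 round spermatid and 7 of 9 spermatogonial markers were lower in Tex10-deficient than in wild-type MII libraries. So were 9 of 9 elongating spermatid markers, beside a median log2 difference of -0.02 for all genes. The elongating spermatid list summed to 342 and 689 FPKM in Tex10-deficient and 845 and 804.5 FPKM in wild-type MII libraries. These sums do not overlap, like the spermatocyte sums given above. The round spermatid list summed to 30.1 and 53.8 FPKM in Tex10-deficient and 53.6 and 167 FPKM in wild-type libraries, which overlap, and the spermatogonial list to 52.8 and 46.1 FPKM in Tex10-deficient and 37.2 and 58.4 FPKM in wild-type libraries, which overlap too. None of these lists had a member at 0 in both libraries of an MII group, and their part in the Rxfp1 difference was not tested.

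Genes beside Rxfp1 had the following levels in MII. Etfdh, an electron transfer enzyme gene 12.1 kb away, had 25.3 and 29.0 FPKM in Tex10-deficient and 26.0 and 18.7 FPKM in wild-type MII libraries. Tmem144, 74.7 kb away, had 1.84 and 3.30 FPKM in Tex10-deficient and 2.98 and 2.89 FPKM in wild-type ones. Fam198b, 147 kb away, had 22.1 and 24.5 FPKM in Tex10-deficient and 13.8 and 10.3 FPKM in wild-type ones, and 4930579G24Rik, 8.8 kb away, had 2.001 and 2.23 FPKM in Tex10-deficient ones, against 1.70 and 2.66 FPKM in wild-type ones.

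Rxfp2, the Insl3 receptor, was highest in spermatids, then in MI spermatocytes, and below 1 FPKM in the MII libraries where its ligand was highest. The gene (XLOC_016335) has 18 exons on chromosome 5, 150018675 to 150082184, plus strand. In Tex10-deficient cells it had 0.0486 and 0.233 FPKM in spermatogonia, 1.13 and 0.988 FPKM in MI spermatocytes, 0.0742 and 0.099 FPKM in MII spermatocytes, and 7.34 and 3.46 FPKM in spermatids. In wild-type cells it was listed at 0 in both spermatogonial libraries and had 2.12 and 2.40 FPKM in MI spermatocytes, 0.138 and 0.843 FPKM in MII spermatocytes, and 5.70 and 8.13 FPKM in spermatids. In all 4 spermatid libraries its level exceeded that of all other libraries.

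Its RefSeq promoter (GRCm38.p6, chr5:150018425-150018724, plus strand) is shown beside that of its ligand as the counterpart with the other pattern over cell types, and has no capitals because none of the 3 motifs searched in the Insl3 promoter was found on either strand of this window.
Rxfp2 promoter: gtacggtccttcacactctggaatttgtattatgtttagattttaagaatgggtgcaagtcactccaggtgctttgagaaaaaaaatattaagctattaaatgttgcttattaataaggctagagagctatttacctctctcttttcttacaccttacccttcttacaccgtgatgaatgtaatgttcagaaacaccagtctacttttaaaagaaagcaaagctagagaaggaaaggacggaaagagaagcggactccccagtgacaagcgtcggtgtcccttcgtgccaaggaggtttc

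Rxfp2 was higher in MI spermatocytes than in spermatogonia by 0.86 on the log2 scale in Tex10-deficient cells (SE 0.34, limma adjusted p = 0.0467) and by 1.70 in wild-type cells (SE 0.34, adjusted p = 0.000872). It fell into MII by 0.92 in Tex10-deficient cells (adjusted p = 0.0281) and by 1.17 in wild-type cells (adjusted p = 0.00884). From MII to spermatids it was higher by 2.49 in Tex10-deficient cells (adjusted p = 1.25e-05) and by 2.43 in wild-type cells (adjusted p = 2.23e-05), and from MI spermatocytes to spermatids by 1.57 in Tex10-deficient cells (adjusted p = 0.00202) and 1.26 in wild-type cells (adjusted p = 0.00805). The Tex10-deficient step into MI was the least firm: it was not called when any of 12 single libraries was left out, with the highest adjusted p of 0.181 without Tex10-deficient spermatogonia replicate 1. The Tex10-deficient fall into MII was lost without any 1 of the 4 libraries compared (adjusted p 0.0714 to 0.106), and in wild-type cells the fall into MII was lost without MII replicate 1 (adjusted p = 0.103) or MI replicate 2 (adjusted p = 0.0543) and the spermatid excess over MI without MI replicate 1 (adjusted p = 0.0521) or spermatid replicate 2 (adjusted p = 0.0782).

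Between genotypes Rxfp2 did not pass in any tested cell type. In MI spermatocytes both Tex10-deficient libraries lay below both wild-type ones, as for 18.4% of genes, with means of 1.06 ± 0.0995 FPKM in Tex10-deficient and 2.26 ± 0.201 FPKM in wild-type libraries (SD, n = 2 each). The Tex10-deficient MI mean was 46.8% of the wild-type mean, and the log2 difference was -0.66 (SE 0.34, 95% interval -1.38 to 0.06, limma adjusted p = 0.908). In spermatogonia both Tex10-deficient libraries lay above both wild-type ones, as for 16.9% of genes, with a log2 difference of 0.19 (adjusted p = 1) and all values below 0.25 FPKM. In spermatids the groups overlapped, with means of 5.40 ± 2.75 FPKM in Tex10-deficient and 6.92 ± 1.72 FPKM in wild-type libraries (log2 difference -0.36, adjusted p = 1), and the sign was positive (0.09) without Tex10-deficient replicate 2. The average over the 3 cell types was -0.28 (95% interval -0.70 to 0.14, adjusted p = 0.880).

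**Figure D3:**
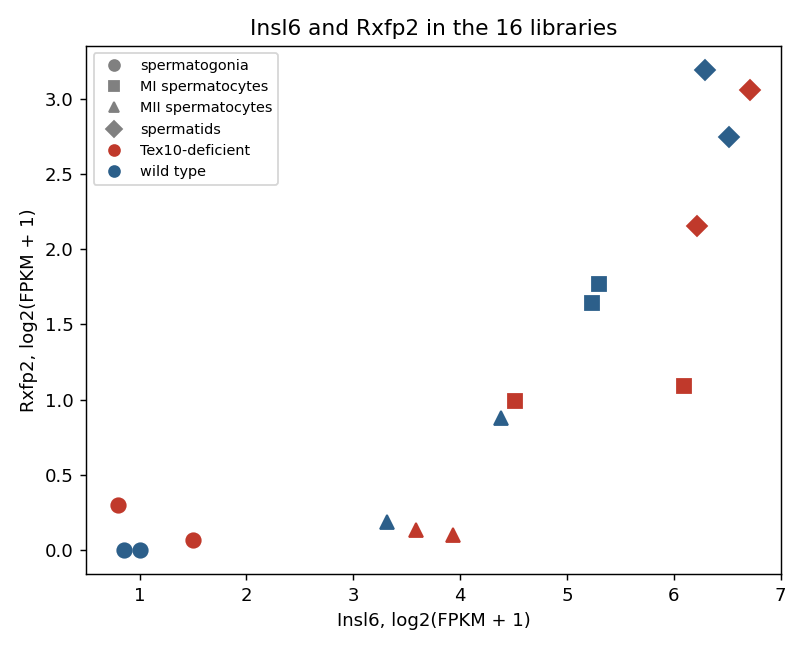
Level of Rxfp2 (y axis) against that of Insl6 (x axis), both as log2(FPKM + 1), in the 16 libraries, each point a library, with colours for genotype and marks for cell type. Both are highest in spermatids, Insl6 is lowest in spermatogonia, and Rxfp2 is below 1 FPKM in all spermatogonial and MII libraries. The correlation of their log2(FPKM + 1) values was 0.846.

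Over the 16 libraries Insl6 and Rxfp2 had the most alike course of any 2 of the 4 genes (Pearson r = 0.846 on log2(FPKM + 1)), followed by Insl3 and Rxfp1 (r = 0.588). Insl3 and its receptor Rxfp2 ran apart (r = -0.48). These values describe 16 libraries that share 4 cell types, and most of each comes from differences between those types. The value for Insl3 and Rxfp1 also includes the MII values that chose Rxfp1, so its rank is no separate result.

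Taking all 4 genes by the call rule of an adjusted p under 0.05 with limma, 0 passed between genotypes in spermatogonia, where 0.0153% of genes passed, 0 in MI spermatocytes (0.168%), 0 in spermatids (0%) and 0 on the average of the 3 cell types (0.0534%). At an unadjusted p under 0.05, 1 of the 4 (Rxfp1) passed in spermatogonia and on the average, beside 6.6% and 6.93% of genes. In MI spermatocytes and spermatids 0 passed, beside 5.84% and 2.17% of genes. Rxfp1 was chosen by its MII values and entered the tested genes only through the 2 wild-type MII libraries. It was below 1 FPKM in every library of these 3 cell types, so this count gives it no support. The F test of whether the genotype difference varied between these 3 cell types gave an adjusted p of 1 for each gene, and 0% of genes passed it.

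**Figure D4:**
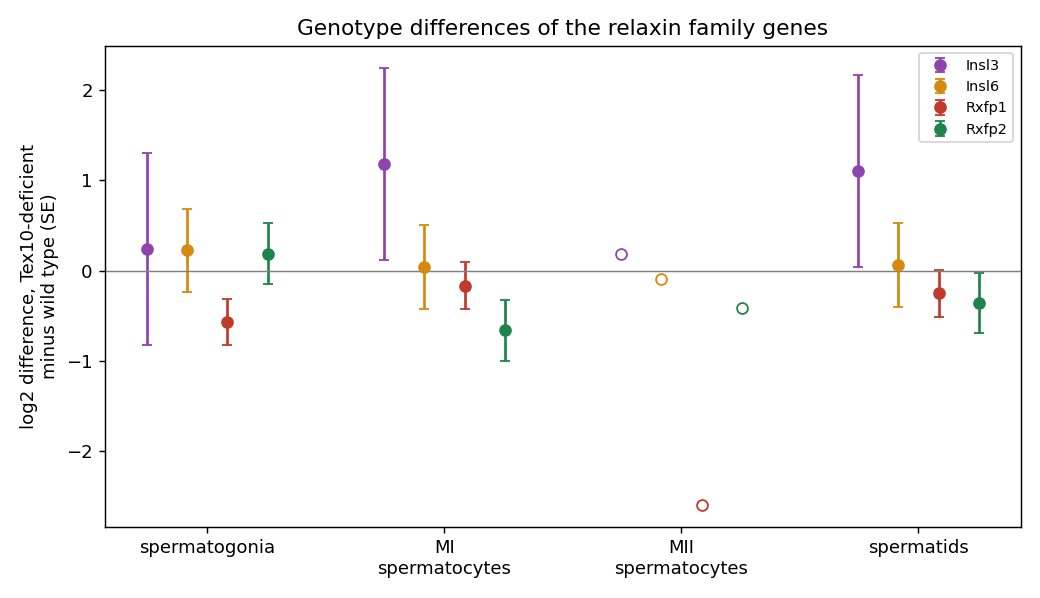
Difference in log2(FPKM + 1), Tex10-deficient minus wild type (y axis), of the 4 genes in each cell type (x axis), with points for estimates and bars for their SE from the limma fit. Open symbols without bars are MII spermatocytes, not tested since the value of -2.59 there is the one that chose Rxfp1, and Insl3 has the widest bars (SE 1.07).

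With Tex10-deficient libraries grouped by the cell type field in place of the title, the genotype difference in MII spermatocytes was -2.91 for Rxfp1, 1.54 for Rxfp2, -6.05 for Insl3 and 2.56 for Insl6. Rxfp1 was below 0.5 FPKM in all 8 Tex10-deficient libraries, those that chose it included, which no regrouping can change. Wild-type libraries outside MII were low too, with 0.123 to 0.697 FPKM. The Rxfp1 value under the field grouping is therefore no separate support for its difference in MII. In MI spermatocytes that grouping put Insl6 at -3.08 (limma adjusted p = 0.0334), the single genotype call among the 4 genes under any alternative run, and it turned the Tex10-deficient steps from MI to MII of Insl3 to -3.38, of Insl6 to 4.21 and of Rxfp2 to 1.86.

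Signalling through cAMP was looked at through a list of genes of that pathway, 26 of 33 of which were tested. The list covers the pathway at large, and whether its genes respond to these receptors was not tested. With limma 0 passed between genotypes in any cell type, beside 1 of 26 at an unadjusted p under 0.05 in spermatogonia (6.6% of all genes), 1 in MI spermatocytes (5.84%), 5 in MII spermatocytes (13.3%) and 0 in spermatids (2.17%). The list median of the log2 difference was 0.09 in spermatogonia, -0.06 in MI spermatocytes, 0.11 in MII spermatocytes and -0.01 in spermatids, beside -0.01, -0.00, -0.02 and -0.02 for all genes. Gnas, the G protein subunit that stimulates cAMP synthesis, had 66.3 and 32.3 FPKM in Tex10-deficient and 21.8 and 14.4 FPKM in wild-type spermatogonia (log2 difference 1.34, limma adjusted p = 0.687). Adcy10, the soluble adenylyl cyclase needed for sperm motility, had 12.7 and 14.7 FPKM in Tex10-deficient and 29.7 and 42.2 FPKM in wild-type MI spermatocytes (-1.31, adjusted p = 0.702). Crem, the cAMP-responsive activator of spermatid genes, had 4.46 and 6.17 FPKM in Tex10-deficient and 8.07 and 21.7 FPKM in wild-type MII libraries (-1.20, adjusted p = 0.175), and 174 and 164 FPKM in Tex10-deficient and 165 and 187 FPKM in wild-type spermatids.

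Across cell types the same list changed in both directions. From spermatogonia to MI spermatocytes 6 genes rose and 13 fell in Tex10-deficient cells, and 5 rose and 8 fell in wild-type cells, beside 26.5% of all genes higher and 24.7% lower in Tex10-deficient and 26.3% and 25.7% in wild-type cells. Those that rose in wild-type MI spermatocytes included Adcy10 (log2 difference 4.32), Crem (3.21) and Pde8a (3.22), a cAMP phosphodiesterase, and those that fell included the inhibitory subunit Gnai1 (-2.30). From MI spermatocytes to spermatids, where Rxfp2 was highest, 9 rose and 3 fell in Tex10-deficient cells and 8 rose and 4 fell in wild-type cells, beside 23.6% of all genes higher and 18.8% lower in Tex10-deficient and 22.6% and 19.8% in wild-type cells. Prkar2a, a regulatory subunit of protein kinase A, was the most raised of these in wild-type cells (4.58), ahead of the phosphodiesterase Pde4a (3.27).

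A list of matrix and vessel genes that relaxin is known to act on had 5 of 10 members tested, namely Mmp2, Col1a1, Col3a1, Tgfb1 and Vegfa. With limma 0 passed between genotypes in any cell type, beside 0 at an unadjusted p under 0.05, and the list median of the log2 difference in MII was 0.25 beside -0.02 for all genes. All 5 were called higher in MII than in MI libraries in both genotypes. Of all genes, 31.6% in Tex10-deficient and 30% in wild-type cells were called higher. The list median of this log2 difference was 3.49 in Tex10-deficient and 3.52 in wild-type cells. Myoid and endothelial markers summed to 90.7 to 147 FPKM in the MII libraries, against 4.51 to 10.4 FPKM in the MI libraries. The part of somatic cells in the levels of these 5 genes was not tested. Collagen Col1a1 had 359 and 517 FPKM in Tex10-deficient and 277 and 365 FPKM in wild-type MII libraries, and the matrix protease Mmp2 had 32.8 and 28.7 FPKM in Tex10-deficient and 33.7 and 31.3 FPKM in wild-type ones.

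The genes whose log2 levels followed each member most closely over the 16 libraries were listed by Pearson r. For Insl3 they were the lipid carrier Fabp3 (0.979), the glutathione transferases Mgst1 (0.975) and Gstm2 (0.973), Bpifb5 (0.966) and Akr1cl (0.965). Fabp3 had 522 and 303 FPKM in Tex10-deficient and 381 and 242 FPKM in wild-type MII libraries and 41.5 FPKM in Tex10-deficient spermatid replicate 2, the same library that stood out for Insl3. For Insl6 they were the elongation factor homologue Elof1 (0.989), the radial spoke gene Rsph9 (0.988), the ciliary transport gene Ift43 (0.988), Gstm5 (0.987) and the glycolytic enzyme Pfkm (0.986). Elof1 had 51.6 and 15.8 FPKM in Tex10-deficient MI libraries, with replicate 1 the higher as for Insl6, and 27.8 and 27.5 FPKM in wild-type ones.

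For Rxfp2 the closest genes were Hpcal4 (0.987), a neuronal calcium sensor, Tiprl (0.986), Sertad2 (0.985), Pdzph1 (0.983) and the adhesion receptor Adgrv1 (0.981). All 5 were lower in both Tex10-deficient MI libraries than in both wild-type ones, as were 18.4% of all genes. They had been picked for following Rxfp2, which has that order too, in these same libraries, so this count is no separate result. Pdzph1 had 0.83 and 0.775 FPKM in Tex10-deficient and 2.33 and 2.78 FPKM in wild-type MI libraries. Sertad2 had 25.9 and 29.4 FPKM in Tex10-deficient and 46.3 and 56.6 FPKM in wild-type MI libraries. For Rxfp1 the closest genes reached lower values of r: Wisp2 (0.772), Sdpr (0.77), Syt1 (0.765), Flrt2 (0.764) and Clic6 (0.763). They were picked on the same libraries, with the MII values that chose Rxfp1 among them. Wisp2 stood at 6.85 and 5.24 FPKM in Tex10-deficient and 16.8 and 8.81 FPKM in wild-type MII libraries and Syt1, a synaptic vesicle calcium sensor, at 1.73 and 4.07 FPKM in Tex10-deficient and 8.34 and 3.23 FPKM in wild-type ones.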

How the data were processed

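PolyA-enriched bulk RNA of 16 testis cell libraries was analysed, 2 in each of 8 groups. The deposited table holds FPKM. The submitters' processing notes name Cufflinks 2.2.1, STAR 2.7.6a, cutadapt, Trim Galore 0.6.3, FastQC 0.10.1 and the build mm10. The sources used here do not give the annotation, strand setting or gene filter. The smallest deposited value was 1, so the authors were taken to have added 1, which was subtracted. Of 13101 rows, 1 held a letter and was left out. Of the remaining values 3.33% were 0, and such a gene is called listed at 0, since a 0 can be a failed estimate. Depth is unknown, so no counting interval is given.

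Groups followed the sample titles. The 13099 genes that reached 1 FPKM in 2 or more libraries were analysed on the log2(FPKM + 1) scale, which understates the change of low genes. limma (3.58.1, under R 4.3.3) fitted all 8 groups at once, with lmFit and a trended eBayes, leaving 8 residual degrees of freedom. A gene counted as called when its p after Benjamini-Hochberg adjustment was under 0.05. Nothing in the labels ties the libraries to separate animals, so the p-values reflect the scatter of these samples only, which may be technical. The fit was tested on simulated data with the same spread for every gene and changes placed only in genes of higher level. That test does not cover low genes such as Rxfp1 and Rxfp2.

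The members, lists and tests were chosen with earlier results of these data known. Named genes were each member, the list genes with the smallest p in each comparison of genotypes and those that passed, Jak2 and Jak3, Tex10, the leading Leydig markers by mean level, and for each member the 5 genes of highest Pearson r with a mean of at least 1 FPKM. Genes beside Rxfp1 and, in the closing section, 9430065F17Rik were named, and the Leydig marker sum without Hsd3b6 was taken, after their values were seen. Positions are from GENCODE M21 (GRCm38) and promoters from RefSeq. Alternatives covered the pseudocount, the filter, quantile and median-of-ratios scaling, the trend, a replicate block, groups from the cell type field, fits without the MII libraries or of the libraries compared alone, and each library left out in turn.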

Additional observations from a re-analysis of the deposited data

Results flagged for a closer look

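Rxfp2 values of the genotypes lay apart in opposite directions in different cell types. Both Tex10-deficient libraries lay above both wild-type ones in spermatogonia (log2 difference 0.19), as for 16.9% of genes. They lay below both in MI spermatocytes (-0.66), as for 18.4% of genes, and in MII spermatocytes (-0.41), as for 18% of genes. The MII value was -0.07 without wild-type MII replicate 2, -0.76 without wild-type MII replicate 1, -0.0079 under quantile normalization and -1.35 with a pseudocount of 0.1. The values in spermatogonia were 0.0486 and 0.233 FPKM in Tex10-deficient libraries and listed at 0 in both wild-type libraries. The F test over spermatogonia, MI spermatocytes and spermatids gave 1.64 with a limma adjusted p of 1, and the difference that involves MII spermatocytes was not tested.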

How the results depend on the processing

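Leaving out 1 library at a time and the other alternatives changed no call between genotypes except where groups came from the cell type field, under which Insl6 in MI spermatocytes was -3.08 (limma adjusted p = 0.0334). That grouping also gave Insl6 -1.04 in spermatids and -0.78 on the average, -0.53, 4.21 and -1.04 for the Tex10-deficient steps spermatogonia to MI, MI to MII and MII to spermatids, Rxfp2 1.86 and -0.50 and Insl3 -3.38 and 2.45 for the Tex10-deficient steps MI to MII and MII to spermatids, and Rxfp1 0.0056 in MI spermatocytes and -2.91 in MII. The MII difference of Rxfp1 was -4.52 with a pseudocount of 0.1, -1.13 with 5, -2.37 under quantile normalization, and between -2.85 and -2.33 with single libraries left out.

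With single libraries left out, the genotype difference of Insl3 ran from -0.62 to 1.10 in spermatogonia, from -0.87 to 3.07 in spermatids, from -0.32 to 0.67 in MII and from 0.18 to 1.495 on the average, and its wild-type step from MI to spermatids from -0.78 to 2.05. That of Insl6 ran from -0.13 to 0.57 in spermatogonia, -0.75 to 0.82 in MI, -0.19 to 0.31 in spermatids and -0.16 to 0.37 on the average, and that of Rxfp2 from -0.81 to 0.093 in spermatids. Where leaving out a library turned a sign, no difference had been called. The cause was not tested. The Rxfp2 step from spermatogonia to MI in Tex10-deficient cells was not called with a pseudocount of 5 (adjusted p = 0.242) or under quantile normalization (adjusted p = 0.0942), its fall into MII there with a pseudocount of 5 (adjusted p = 0.193), and its wild-type excess of spermatids over MI with a pseudocount of 0.1 (adjusted p = 0.0955). The Insl6 excess of spermatids over MI spermatocytes passed under 7 alternatives in each genotype, with adjusted p of 0.0389 in wild-type and 0.038 in Tex10-deficient cells at a pseudocount of 5.

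Same-numbered libraries of the genotypes deviated together with r of 0.203 in spermatogonia, 0.004 in MI, 0.308 in MII and -0.127 in spermatids. Whether they share more than a number cannot be told from these values. With the replicate number as a block, called genes went to 32, against 22 without it, in MI spermatocytes and to 268, against 1, in MII, and no member's call changed other than Insl6 in Tex10-deficient spermatids over MI (1.16, adjusted p = 0.0475). Quantile normalization moved the median of all genes by more than 0.1 in most steps between cell types, for example to -0.25, against -0.07, from spermatogonia to MI in wild type. Levels below 1 FPKM cannot be given a precision without read numbers.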

Other observations

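Rxfp1 was listed at 0 in 5 of 8 Tex10-deficient and 0 of 8 wild-type libraries. At least 5 and 0 such libraries were found for 2 of 13099 genes, Rxfp1 among them. These cuts were set at the tally of Rxfp1 itself, so the count does not show how rare its pattern is. The tally includes the MII libraries that chose Rxfp1. Its wild-type values outside MII were 0.123 to 0.697 FPKM, where a 0 can depend on the unknown depth. The gene 9430065F17Rik, looked up after these values were seen because it had the same tally of zeros with the MII libraries counted, had 0.102 FPKM and a value listed at 0 in Tex10-deficient and 1.08 and 1.35 FPKM in wild-type spermatogonia. It had 0.517 and 0.0861 FPKM in Tex10-deficient and 3.17 and 10.1 FPKM in wild-type MI spermatocytes, and in spermatids it was listed at 0 in both Tex10-deficient libraries and had 4.24 and 6.39 FPKM in wild-type ones.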
